A study of Mus musculus with 4 samples.

Results

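Matrix metalloproteinases (MMPs) and their inhibitors, the tissue inhibitors of metalloproteinases (TIMPs), were read at the transcript level in peritoneal macrophages of mice given advanced glycation end products (AGEs). The genes were Mmp2, Mmp8, Mmp9, Mmp12, Mmp13, Mmp14, Mmp19, Timp1, Timp2 and Timp3, chosen by their symbols in the deposited gene table and not by their values. Earlier results of these data were known when they were chosen. Of these 10 genes, 9 had a row among the 15575 genes listed, 6 of them MMPs and 3 of them TIMPs, and all 9 passed edgeR's filter on low counts, which left 14181 genes to test. Mmp2, which encodes gelatinase A (chromosome 8 from 92827290 to 92853421 of GRCm38.p6), had no row and was not analysed here.

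Male C57BL/6 mice of 8 to 12 weeks received either AGEs, here bovine serum albumin modified with dehydroascorbic acid (DHA), or unmodified bovine serum albumin (BSA), both at 10 mg/kg/day from 24 h before thioglycollate (TG). All mice of both groups received TG into the peritoneal cavity, an irritant that draws monocytes and macrophages there, and the adherent peritoneal cells were collected 72 h later. Total RNA was sequenced after removal of ribosomal RNA in 2 AGEs libraries and 2 BSA libraries. The methods call the duplicates biological without saying if mice were pooled, and p-values measure only the spread between these libraries.

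MMPs are zinc endopeptidases that cut collagens, elastin and other matrix proteins as well as cytokines and their receptors. Most are secreted or displayed as inactive proenzymes whose prodomain must be removed, by plasmin, by furin or by another MMP, and TIMPs block the active site by binding to it. Macrophages recruited by TG are a classical source of the elastase MMP-12, while MMP-8 and MMP-9 are also stored in the granules of neutrophils. The study asked how AGEs act on plasminogen activation and on the MMP-9 that lies downstream of it. Transcripts say nothing of cleavage, secretion or activity, which these files do not measure.

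Mmp13, Mmp12 and Mmp8 lie on chromosome 9 in a cluster of protein-coding MMP genes spanning 427 kb, of which these 3 and Mmp27 had a row. The upstream sequence of Mmp13, Mmp12 and Timp1 is shown because these were the 3 genes whose unadjusted p lay under 0.05. Each run gives the 80 bases before a RefSeq transcription start on the plus strand of GRCm38.p6, 5′ to 3′. Capitals mark TGANTCA, the site bound by AP-1 (the Fos and Jun family, long known to act at MMP genes), or the TATA box TATAAA.
Mmp13, chr9:7272434-7272513: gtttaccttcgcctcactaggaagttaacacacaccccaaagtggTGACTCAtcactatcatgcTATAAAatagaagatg
Mmp12, first start, chr9:7344317-7344396: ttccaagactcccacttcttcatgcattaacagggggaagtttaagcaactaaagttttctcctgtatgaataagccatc
Mmp12, second start, chr9:7347294-7347373: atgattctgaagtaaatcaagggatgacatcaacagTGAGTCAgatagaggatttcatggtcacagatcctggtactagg
Timp1, chrX:20870086-20870165: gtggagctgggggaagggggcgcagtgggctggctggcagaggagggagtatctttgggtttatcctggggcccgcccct
Searched on both strands over the 250 bases before the start, TGANTCA was in the promoters of 2 of the 7 genes with an entry, Mmp13 and Mmp12, against 7.82% of the 27025 genes in the RefSeq promoter table. TATAAA was in 1 of the 7, Mmp13, against 14.3% of those genes. In Mmp13 the AP-1 letters began 35 bases before the start and the TATA letters 16 bases before it, and in Mmp12 the AP-1 letters began 44 bases before the second start. The 2 motifs did not overlap, and a match is a description of the letters only.

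The libraries held 23079245 and 24472926 counts in the AGEs group and 17773088 and 22146761 in the BSA group. BSA replicate 1 differed most from the rest, with a score of 34.6 on the first principal component (38.7% of the variance) against -16.9 to -5.08 in the others, and values of the 9 genes that turn on it are also given without it. Markers of cell types were listed from textbook knowledge, with earlier results of these data known. The 9 macrophage markers, such as Adgre1, Cd68 and Lyz2, all had a row. None of them passed the study's threshold, a change over 1.5-fold at an unadjusted p under 0.05 (here from edgeR), which 1.77% of all genes tested passed. DESeq2 and limma-voom called 0 of them as well. Of 12 neutrophil markers 8 had no row, among them Ly6g, S100a9 and Mpo, and the level of the other 4 together, in TPM (the authors' transcript level scaled to transcript length and to the library), was 6.70 and 8.73 TPM in AGEs libraries, against 6.54 and 5.36 TPM in BSA libraries. Both AGEs sums thus lay above both BSA sums. Of the 2 neutrophil markers tested, 0 passed in edgeR, DESeq2 or limma-voom, and this changed without BSA replicate 1. Mesothelial and fibroblast markers (14 of 15 with a row) summed to 48.2 and 25.9 TPM in AGEs libraries, against 34.2 and 34.1 TPM in BSA libraries. Of the 12 tested, 0 passed in edgeR, DESeq2 or limma-voom, and 0 had an unadjusted edgeR p under 0.05. The count that passed rose without AGEs replicate 2, the lower AGEs library, and also without BSA replicate 2. Of 6 dendritic cell markers tested 4 were lower in AGEs libraries past the threshold (Flt3, Ccr7, Cd209a and Kmo), and of 8 mast cell and basophil markers 2 were higher (Gata2 and Hdc). DESeq2 called 2 of these dendritic cell markers (Flt3 and Ccr7) and both mast cell and basophil markers. The study itself listed Ccr7 among pro-inflammatory (M1) macrophage genes lower with AGEs. It listed Gata2 among alternatively activated (M2) macrophage genes higher with AGEs. Batf3, a further dendritic cell marker, was higher in both AGEs libraries and did not pass, at a log2 fold change of 0.75 (SE 0.476). Zbtb46, the last of the 6, was at 0.035 (SE 0.336), with overlapping groups. Of the 8 mast cell and basophil markers, 6 had a positive and 2 a negative log2 fold change. Kit had 0.19 (SE 0.468) and Cpa3 -0.27 (SE 0.832). Some called genes had few counts. Kmo had 14 and 8 in AGEs libraries, against 20 and 30 in BSA libraries, and Gata2 33 and 28, against 4 and 13. Ccr7 had 66 and 101, against 141 and 142. Leaving out BSA replicate 1 left 3 and 0 of these calls, and over the 4 fits with a library left out the dendritic count ran from 2 (without either AGEs library) to 4 and the other from 0 (also without AGEs replicate 1) to 4 (without BSA replicate 2). Of 4 eosinophil and 6 B and T cell markers tested, 0 passed with edgeR, DESeq2 or limma-voom, and 0 and 1 had an unadjusted edgeR p under 0.05. With a library left out, 1 B and T cell marker passed in 3 of the 4 fits (not without BSA replicate 2) and 1 eosinophil marker without BSA replicate 2. Their part in the results below was not tested. In bulk RNA, fewer cells of a type and less RNA per cell cannot be told apart.

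Levels of different genes are compared in TPM, which accounts for transcript length. Mmp12, the macrophage elastase, was the most abundant of the 9 genes, with a mean of 796.5 TPM over the 4 libraries and a level above that of 99.7% of all listed genes. Timp2, the inhibitor that also helps MMP-14 to activate pro-MMP-2, followed at 203.8 TPM. Mmp19, a proteinase of basement membrane proteins, averaged 75.4 TPM, and Mmp13, a collagenase, 27.7 TPM. Mmp14, the membrane-bound MMP, averaged 13.1 TPM and Mmp9, gelatinase B, 7.93 TPM. The lowest levels were those of Timp1 (5.43 TPM), Mmp8 (2.26 TPM) and Timp3 (1.86 TPM), the last being above only 27.4% of listed genes. The order was the same within each of the 4 libraries. Of the 8 pairs of neighbours in it, 2 overlapped when all libraries were pooled, Timp1 with Mmp8 and Mmp8 with Timp3.

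**Figure D1:**
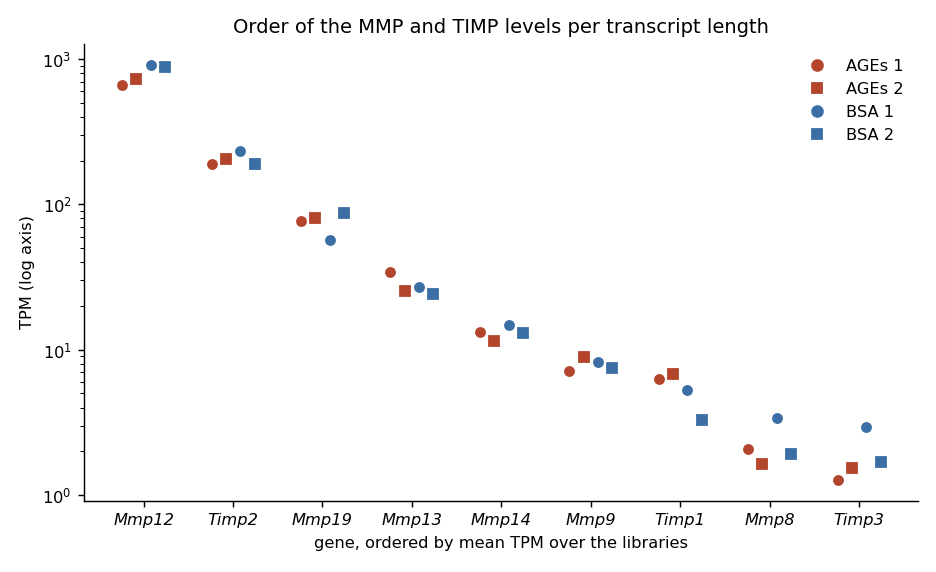
TPM (log axis) of the 9 genes, ordered by their mean over the 4 libraries, with a point for each AGEs library (red) and each BSA library (blue). Mmp12 lies between 663.7 and 913.1 TPM in every library, and Timp3 between 1.27 and 2.93 TPM.

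Between the groups, levels are given as CPM, counts scaled to library size after TMM normalization, and tested with edgeR's quasi-likelihood test. Timp1 alone among the 9 genes passed the threshold given above. This count of 1 of 9 stands beside 1.77% of all genes tested (251 of 14181), made up of 0.825% of all genes higher and 0.945% lower in AGEs libraries. The AGEs libraries lay wholly above the BSA libraries for Timp1 and Mmp13 and wholly below them for Mmp12 and Timp3, that is for 4 of the 9 genes, against 35.3% of all genes tested (17.7% above and 17.7% below). The median log2 fold change (AGEs over BSA) of the 9 genes was -0.003, against -0.0026 over all genes, with 4 genes positive and 5 negative. After Benjamini-Hochberg adjustment over all genes no gene of the table had an edgeR adjusted p under 0.05, while 800 genes had an unadjusted p under 0.05. DESeq2 gave 5 such genes by adjusted p and limma-voom 0. Among the 9 genes the edgeR adjusted p lay between 0.848 and 0.998. An exact permutation test (two-sided) of 2 libraries against 2 cannot give a p below 0.333, and calls at smaller p depend on edgeR's pooling of the spread over genes.

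**Figure D2:**
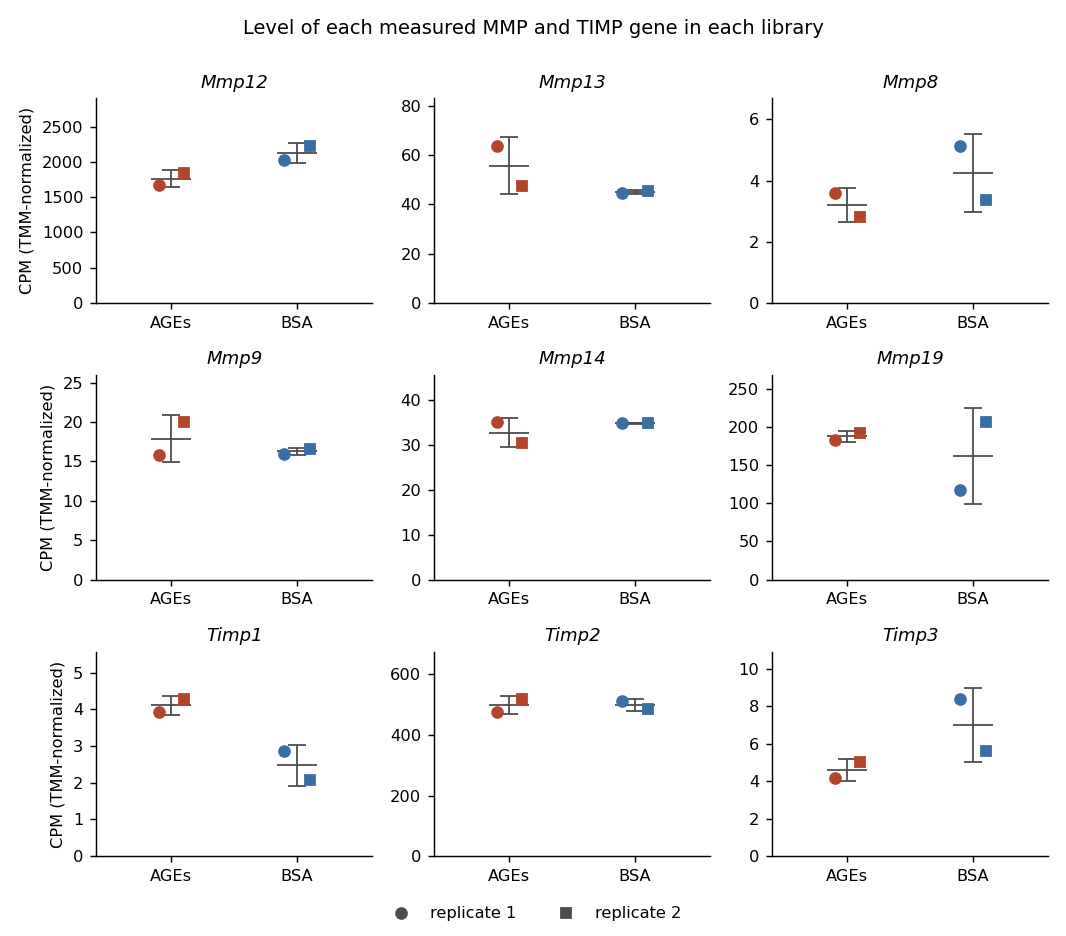
TMM-normalized CPM of each gene in each library (circle, replicate 1; square, replicate 2), with AGEs in red and BSA in blue; the horizontal line is the mean and the bar the SD of 2 libraries. The groups do not overlap for Mmp12, Mmp13, Timp1 and Timp3, and in Mmp19 the BSA replicate 1 library lies below the other 3.

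Mmp12 encodes macrophage elastase, which degrades elastin and also cuts chemokines (Entrez gene 17381, chromosome 9 from 7344397 to 7360461 of GRCm38.p6, the build of every position given here). Its counts were 38437 and 44848 in AGEs libraries, against 36617 and 49285 in BSA libraries. Scaled to CPM, these were 1678 and 1846 in AGEs libraries, against 2024 and 2234 in BSA libraries. Both AGEs libraries lay below both BSA libraries, by less than the threshold's 1.5-fold. The mean was 1762 ± 118.8 CPM in AGEs libraries and 2129 ± 148.5 CPM in BSA libraries (SD, n = 2 each). The log2 fold change was -0.27 (SE 0.091), a ratio of 0.828, with a 95% confidence interval from -0.47 to -0.08, and edgeR's adjusted p was 0.848. The deposited TPM showed the same separation, at 663.7 and 729.1 TPM in AGEs libraries, against 913.1 and 880.0 TPM in BSA libraries. With each library left out the log2 fold change lay between -0.35 (without BSA replicate 1) and -0.19 (without BSA replicate 2). With a correction for GC content it was -0.20. The GC content of Mmp12 was 40.3%, against a median of 49.5% over all genes tested. In the GENCODE annotation the 3' end of Mmp12 overlaps Mmp1b on the opposite strand, which had no row.

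Mmp13, the main interstitial collagenase of rodents (Entrez gene 17386, chromosome 9 from 7272514 to 7283333), had 1461 and 1152 counts in AGEs libraries, against 803 and 1002 counts in BSA libraries. This gave 63.8 and 47.4 CPM in AGEs libraries, against 44.4 and 45.4 CPM in BSA libraries. AGEs replicate 1 was high, while AGEs replicate 2 lay just above the BSA libraries. The log2 fold change of 0.31 (SE 0.133), with a 95% confidence interval from 0.02 to 0.60, did not reach 1.5-fold, and edgeR's adjusted p was 0.879. It was 0.08 without AGEs replicate 1 and 0.51 without AGEs replicate 2, so the choice of AGEs library set its size. On TPM the groups overlapped, with 34.1 and 25.3 TPM in AGEs libraries and 27.0 and 24.2 TPM in BSA libraries. Set against its neighbour within the same library, Mmp13 had 38.0 and 25.7 counts per 1000 counts of Mmp12 in AGEs libraries, against 21.9 and 20.3 in BSA libraries. By CPM, Mmp12 was itself lower in both AGEs libraries, so this ratio is no separate support for a difference in Mmp13.

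Mmp8, the collagenase of neutrophils (Entrez gene 17394, chromosome 9 from 7558429 to 7568486), was counted 82 and 68 times in AGEs libraries, against 93 and 74 times in BSA libraries. At 3.58 and 2.80 CPM in AGEs libraries and 5.14 and 3.35 CPM in BSA libraries, the groups overlapped. Its log2 fold change was -0.41 (SE 0.335), with a wide 95% confidence interval from -1.13 to 0.32 at this depth, and edgeR's adjusted p was 0.927. Without BSA replicate 1, the highest library, it was -0.08.

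Mmp9 encodes gelatinase B, the proenzyme whose cleavage the study followed as protein (Entrez gene 17395, chromosome 2 from 164940326 to 164955850). Its counts were 362 and 485 in AGEs libraries, against 289 and 366 in BSA libraries. The CPM values, 15.81 and 19.97 in AGEs libraries and 15.97 and 16.59 in BSA libraries, put AGEs replicate 1 below and AGEs replicate 2 above both BSA libraries. A log2 fold change of 0.14 (SE 0.171) was smaller than its error, and edgeR's adjusted p was 0.941. In the fit of all libraries the 95% confidence interval ran from -0.23 to 0.51, which leaves out a 1.5-fold difference in either direction. This holds for that fit only. Leaving out AGEs replicate 2 gave -0.04 and leaving out AGEs replicate 1 gave 0.30. The neutrophil markers with a row were low in every library, S100a8 having 34 and 50 counts in AGEs libraries, against 23 and 24 in BSA libraries.

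Mmp14 encodes the membrane-type MMP that cuts collagen at the cell surface and activates pro-MMP-2 (Entrez gene 17387, chromosome 14 from 54431598 to 54442456). It had 801 and 737 counts in AGEs libraries, against 628 and 767 in BSA libraries. Scaled by TMM this was 35.0 and 30.3 CPM in AGEs libraries and 34.7 and 34.8 CPM in BSA libraries, so the groups overlapped. Its log2 fold change was -0.09 (SE 0.122), with a 95% confidence interval from -0.35 to 0.18 and an edgeR adjusted p of 0.948. This interval, too, leaves out 1.5-fold in both directions.

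Mmp19 encodes a secreted MMP of the basement membrane (Entrez gene 58223, chromosome 10 from 128790910 to 128800827). It was counted 4186 and 4683 times in AGEs libraries, against 2130 and 4552 times in BSA libraries. In CPM, AGEs libraries had 182.8 and 192.8, against 117.7 and 206.3 in BSA libraries. BSA replicate 1 alone was low, and BSA replicate 2 was the highest of the 4 libraries. The log2 fold change of 0.21 (SE 0.334) had a 95% confidence interval from -0.86 to 1.28, the widest of the 9 genes although only Mmp12 and Timp2 were more abundant, and edgeR's adjusted p was 0.957. It was -0.14 without BSA replicate 1. It was 0.68 without BSA replicate 2, at an edgeR adjusted p of 0.0244 (0.0244 to 1.0 over the 15 alternatives), so the library left out decided both direction and call. Mmp19 overlaps Tmem198b on the opposite strand, which had 216 and 177 counts in AGEs libraries, against 177 and 217 in BSA libraries.

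Timp1 encodes a secreted inhibitor that binds pro-MMP-9 as well as active MMPs (Entrez gene 21857, chromosome X from 20870166 to 20874737). It had 90 and 104 counts in AGEs libraries, against 52 and 46 counts in BSA libraries. Its CPM was 3.93 and 4.28 in AGEs libraries, against 2.87 and 2.09 in BSA libraries. Both AGEs libraries were higher than both BSA libraries, and the means were 4.11 ± 0.249 CPM in AGEs libraries and 2.48 ± 0.558 CPM in BSA libraries (SD, n = 2 each). With edgeR, Timp1 passed the study's limits on fold and p, at a log2 fold change of 0.73 (SE 0.336), a ratio of 1.66. Its edgeR adjusted p was 0.879. The lower bound of the 95% confidence interval was 0.007 and the upper bound 1.46. The call was lost in 9 of 15 alternatives, although the direction was kept in all 15. It did not pass without AGEs replicate 1 (0.79), without AGEs replicate 2 (0.67) or without BSA replicate 2 (0.52). Without BSA replicate 1 it was 0.97, and the call stood. On the deposited TPM the groups were also apart, at 6.31 and 6.84 TPM in AGEs libraries, against 5.24 and 3.31 TPM in BSA libraries. Timp1 lies inside Syn1, a synapsin gene on the opposite strand, which had 131 and 96 counts in AGEs libraries, against 61 and 107 in BSA libraries. The library kit keeps the strand, but the sources used here do not say if the counting used it, so reads of such pairs may not have been told apart.

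Timp2 encodes an inhibitor made at a steady rate by many cells (Entrez gene 21858, chromosome 11 from 118301061 to 118355411). Its 10931 and 12604 counts in AGEs libraries and 9288 and 10703 counts in BSA libraries came to 477.3 and 518.9 CPM in AGEs libraries, against 513.3 and 485.1 CPM in BSA libraries. The AGEs libraries were the lowest and the highest of the 4. The log2 fold change was -0.003 (SE 0.084), with a 95% confidence interval from -0.19 to 0.18 and an edgeR adjusted p of 0.998, an interval which leaves out 1.5-fold in both directions. For every 1000 counts of Timp2 in the same library there were 8.23 and 8.25 counts of Timp1 in AGEs libraries, against 5.60 and 4.30 in BSA libraries. This ratio uses the same Timp1 counts and is no separate support for a difference in Timp1. Cep295nl, which overlaps Timp2 on the same strand, had 763 and 843 counts in AGEs libraries, against 545 and 782 in BSA libraries.

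Timp3 encodes the inhibitor that stays bound to the matrix and also blocks ADAM17, the protease that releases TNF (Entrez gene 21859, chromosome 10 from 86300412 to 86349505). It was counted 96 and 122 times in AGEs libraries, against 152 and 124 times in BSA libraries. This was 4.19 and 5.02 CPM in AGEs libraries, against 8.40 and 5.62 CPM in BSA libraries. Both AGEs libraries were lower, with AGEs replicate 2 close to BSA replicate 2 and BSA replicate 1 well above the rest. The log2 fold change of -0.60 (SE 0.279), a ratio of 0.660, exceeded 1.5-fold, but its 95% confidence interval ran from -1.20 to 0.003, just past 0, and it did not pass (edgeR's adjusted p was 0.879). Without BSA replicate 1 it was -0.29, and without BSA replicate 2 it was -0.86 and passed. Timp3 lies within Syn3 on the opposite strand, which had 20 and 23 counts in AGEs libraries, against 16 and 5 in BSA libraries. Fibroblasts and mesothelial cells are known to express Timp1 and Timp3. Their summed markers, given above, had AGEs libraries both highest and lowest. Col1a1, Col1a2, Col3a1 and Dcn made up most of that sum, so it says little of mesothelial cells. The part of either cell type in the Timp1 and Timp3 values was not tested.

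**Figure D3:**
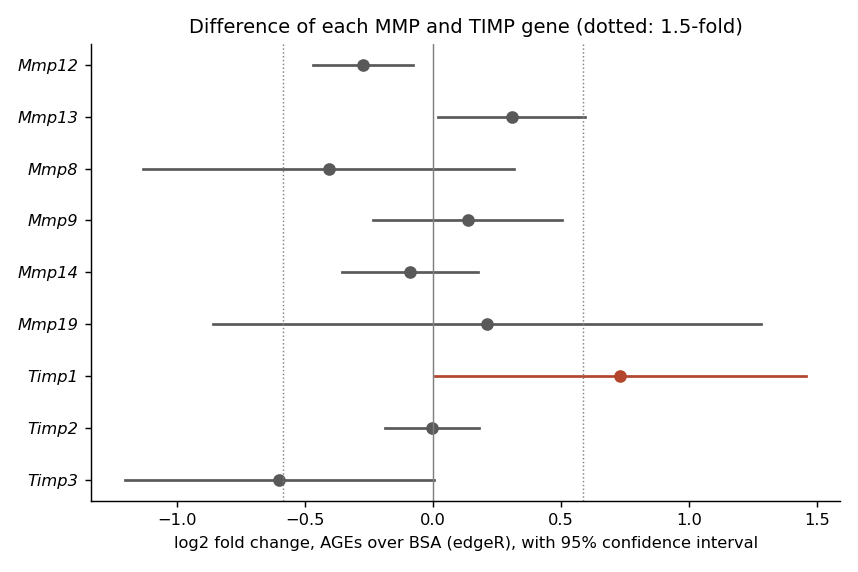
Log2 fold change (AGEs over BSA) of each gene from edgeR with its 95% confidence interval; dotted lines mark 1.5-fold in either direction and red marks the gene past the threshold. Only Timp1 (0.73) passes, and the intervals of Mmp12, Mmp9, Mmp14 and Timp2 lie inside the dotted lines.

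The ratio of MMP to TIMP transcripts was followed within each library, where it does not depend on the scaling between libraries. The summed TPM of the 6 MMP genes was 797.0 and 857.6 in AGEs libraries, against 1023 and 1014 in BSA libraries. For the 3 TIMP genes it was 196.1 and 213.0 TPM in AGEs libraries, against 239.3 and 195.8 TPM in BSA libraries. The ratio was thus 4.06 and 4.03 in AGEs libraries, against 4.28 and 5.18 in BSA libraries, with both AGEs libraries below both BSA libraries and the BSA pair further apart than the groups were at their nearest. Each sum was carried by a single gene. Mmp12 made up 83.3% and 85.0% of the MMP sum in AGEs libraries, against 89.2% and 86.8% in BSA libraries, and Timp2 made up 96.1% of the TIMP sum in both AGEs libraries, against 96.6% and 97.4% in BSA libraries. Without Mmp12 the ratio was 0.680 and 0.603 in AGEs libraries, against 0.460 and 0.682 in BSA libraries, and the groups overlapped. The ratio of Mmp9 to Timp1, an enzyme and the inhibitor that binds its proenzyme, was 1.13 and 1.31 in AGEs libraries, against 1.56 and 2.25 in BSA libraries. Timp1 was itself higher in both AGEs libraries, so this ratio is no separate support for a difference in Mmp9 or in Timp1. The ratios were not corrected for GC content, which was 40.3% for Mmp12 and 53.7% for Timp2. With a GC correction their log2 fold changes were -0.20 and -0.061, against -0.27 and -0.003 without it. The ratios are given as a description and were not tested.

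**Figure D4:**
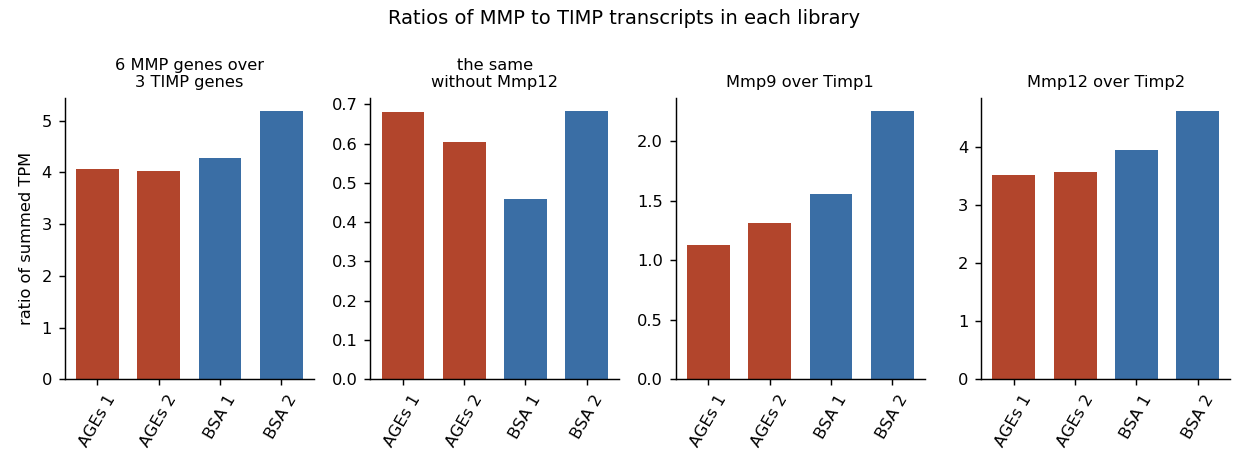
Ratio of summed TPM in each library (AGEs red, BSA blue) for the 6 MMP over the 3 TIMP genes, the same without Mmp12, Mmp9 over Timp1, and Mmp12 over Timp2. The first ratio is 4.06 and 4.03 in AGEs libraries, against 4.28 and 5.18 in BSA libraries, and without Mmp12 the groups overlap.

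Of 18 other MMP and TIMP genes, among them the stromelysins Mmp3 and Mmp10, the matrilysin Mmp7, Timp4 and the membrane inhibitor Reck, only Mmp25, Mmp27 and Mmp28 had a row. Mmp28, which encodes epilysin, an MMP known to restrain macrophage recruitment to the mouse lung, had 90 and 91 counts in AGEs libraries, against 38 and 45 in BSA libraries. It rose past the threshold, with a log2 fold change of 0.89 (SE 0.34) and an edgeR adjusted p of 0.848. The AGEs libraries lay above the BSA libraries with no overlap. With 1 library left out, its log2 fold change stayed between 0.86 and 0.92, but the call stood only without BSA replicate 1. Mmp27 and Mmp25 did not pass, at log2 fold changes of -0.18 (SE 0.171) and -0.48 (SE 0.543).

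Among the activators of pro-MMPs (urokinase, furin, tryptases and the like), 0 of 14 genes tested passed in edgeR, and 0 with DESeq2 or limma-voom, while 2 had an unadjusted p under 0.05. Without BSA replicate 1, 1 passed. Their median log2 fold change was 0.04. The smallest unadjusted p among them was that of Plau, the urokinase that makes plasmin from plasminogen, at a log2 fold change of -0.26 (SE 0.099, adjusted p = 0.848). Its receptor gene Plaur was next, at 0.21 (SE 0.087, adjusted p = 0.876), followed by the tryptase gene Tpsb2 at 0.94 (SE 0.533, adjusted p = 0.902). Of 13 genes tested for docking, induction and clearance of MMPs, 0 passed with any of the 3 tools, and 1 had an unadjusted edgeR p under 0.05. Without AGEs replicate 1, and again without BSA replicate 2, 1 passed. Lrp1, the endocytic receptor that clears MMP and TIMP complexes, had the smallest unadjusted p there, at 0.24 (SE 0.088, adjusted p = 0.848). Basigin (Bsg), an inducer of MMPs, followed at 0.19 (SE 0.097, adjusted p = 0.893), and the clearance receptor Lrp2 had -1.29 (SE 0.746, adjusted p = 0.902).

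Of 17 ADAM and ADAMTS genes tested, relatives of the MMPs that shed membrane proteins or cut proteoglycans, 0 were higher and 1 was lower past the threshold. This was Adam23, a family member without a working catalytic site, with only 8 and 4 counts in AGEs libraries, against 19 and 26 in BSA libraries. Its log2 fold change was -2.10 (SE 0.622, adjusted p = 0.797), and -1.66 without AGEs replicate 2, where it did not pass. The count in this family was 3 without AGEs replicate 1 and 3 without BSA replicate 2. Of 14 cathepsins and cystatins, the lysosomal proteinases and their inhibitors, 0 passed with edgeR, DESeq2 or limma-voom, and 2 had an unadjusted edgeR p under 0.05. The collagen-degrading cathepsin K gene Ctsk had -0.20 (SE 0.081, adjusted p = 0.848) and the cystatin C gene Cst3 0.20 (SE 0.083, adjusted p = 0.86). Ctse, the cathepsin E gene, came next, at -0.63 (SE 0.376, adjusted p = 0.902).

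Of 27 matrix genes tested as substrates, 1 was higher past the threshold and 0 were lower, and their median was 0.13. The gene was Col5a1, a fibrillar collagen chain, with 237 and 190 counts in AGEs libraries, against 66 and 158 in BSA libraries. Its log2 fold change was 0.74 (SE 0.303, adjusted p = 0.86), but 0.34 without BSA replicate 1, the low library, and 0.53 without AGEs replicate 1, and it passed in neither. The count among matrix genes ran from 0 without BSA replicate 1 to 5 without AGEs replicate 2, and was 4 without BSA replicate 2. Of 14 genes of transcription factors known at MMP promoters, 0 passed with any of the 3 tools and 3 had an unadjusted edgeR p under 0.05, with a median log2 fold change of 0.17. Without BSA replicate 2, 1 passed. The AP-1 gene Junb had the smallest unadjusted p, at 0.41 (SE 0.085, adjusted p = 0.604), a change below 1.5-fold. Spi1, the gene of the macrophage factor PU.1, followed at 0.29 (SE 0.089, adjusted p = 0.807), and Fos at 0.24 (SE 0.109, adjusted p = 0.879).

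Across 15 alternatives that changed the tool, scaling, filter, unit, pairing or GC content or left a library out, Mmp12, Mmp13 and Mmp8 kept both their direction and their side of the threshold. Timp1 and Timp3 kept their direction in all 15, and Timp3 passed in 1 of them. By CPM the groups did not overlap for Mmp12, Mmp13, Timp1 and Timp3, so leaving out a library could hardly turn their direction. The other alternatives refit the same libraries, so a kept direction is no separate support for a difference.

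**Figure D5:**
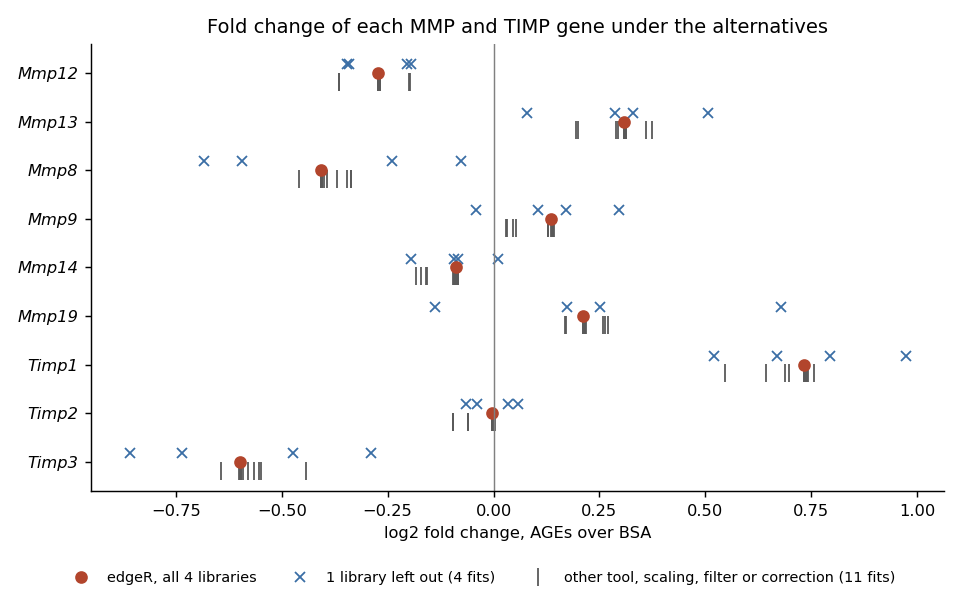
Log2 fold change (AGEs over BSA) of each gene from edgeR on all 4 libraries (red circle), with 1 library left out (blue crosses) and with another tool, scaling, filter or correction (grey ticks). Mmp19 runs from -0.14 to 0.68 with a library left out, and Mmp12, Mmp8 and Timp3 lie below 0 under each alternative shown.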

How the data were processed

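Total RNA of adherent peritoneal macrophages (2 AGEs and 2 BSA libraries, grouped by the treatment label) was sequenced. The authors mapped reads to mm10 (GRCm38) with HISAT2 and deposited read counts per gene and TPM values from StringTie; FPKM, log2 values and their DESeq2 comparison were not used. The sources used here do not say how reads were counted or if by strand. The lowest listed count was 1.

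The main test was edgeR 4.0.16 on the counts, run in R 4.3.3 (TMM, filterByExpr, robust glmQLFit, glmQLFTest, no block), with Benjamini-Hochberg adjustment over the 14181 genes kept. The threshold (over 1.5-fold, unadjusted p under 0.05) is the study's, which applied it to DESeq2 p-values. The SE is the log2 fold change over the root of F. The biological coefficient of variation was 12.9%, and genes with few counts such as Timp1 have wide intervals. The genes and lists were chosen with earlier results of these data known. All genes with a row were named, and in each other list those past the threshold or else up to 3 by unadjusted p. Of the macrophage markers, 1 result is not reported here.

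Alternatives were DESeq2 1.42.0, limma-voom (limma 3.58.1), limma on log2(TPM + 1) and log2(TPM + 0.1), RLE and upper quartile scaling, a replicate block, no filter on low counts or a minimum of 50 counts in 2 libraries, leaving out each library, and calls by the adjusted p or by a 2-fold limit. A loess correction (span 0.5) for GC content, known for 13153 of the tested genes, was added after seeing the data. The steps were tested on simulated counts. Promoter sequences are from RefSeq (GRCm38.p6), which held an entry for 7 of the 10 genes.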

Additional observations from a re-analysis of the deposited data

How the results depend on the processing

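With 1 library left out, 0 to 2 of the 9 genes passed the threshold (2 without BSA replicate 2), and 270 to 543 genes overall. No MMP or TIMP gene of the 9 passed, and Timp1 was lost, with DESeq2 (150 genes overall), at least 50 counts in at least 2 libraries (127), log2(TPM + 1), log2(TPM + 0.1) (505), the GC correction alone or with the replicate block, a fold limit of 2 (136) or the adjusted p (0 overall). The direction turned with a library left out for Mmp9 (-0.042 to 0.295), Mmp14 (-0.194 to 0.011), Mmp19 (-0.14 to 0.68) and Timp2 (-0.064 to 0.057). Timp2, whose log2 fold change was -0.003, also had 0.001 with DESeq2, 0.003 without a filter and 0.000 with upper quartile scaling. The summed MMP to TIMP ratio in AGEs libraries was 0.855 times that in BSA libraries, and 0.781 to 0.945 times with a library left out. The causes were not tested, except that a higher count minimum tests fewer genes. GC content and log2 fold change correlated across 8708 genes (Spearman's rho 0.465), which are not independent replicates. Replicate numbers are shared between the groups, and the deviations of same-numbered libraries hardly correlated across genes (r = 0.03). The labels do not say if such libraries share a batch, and a correlation from 2 libraries per group cannot settle it. The replicate block gave 264 genes past the threshold against 251, and 1 of the 9 in either fit (Timp1). Of the docking, induction and clearance genes, 1 passed with the block, alone or with the GC correction, against 0. Of the activators, 2 passed on log2(TPM + 0.1), against 0. Depth limits Mmp8, Timp1 and Timp3 most, with 46 to 152 counts per library and standard errors of 0.279 to 0.336.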
